A study of Mus musculus with 4 samples.

Results

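Isolated shared regions are places where all 4 libraries of the dentate gyrus carried a summit of accessible chromatin and where no second such place lay within 150 kb. Summits of the 4 lists were joined where they lay at most 250 bp apart, which gave 82899 regions. Regions with a summit in every library on the 19 numbered autosomes, called shared here, numbered 26054. A shared region was called isolated where the start of the nearest other shared region on the chromosome was 150 kb or more away. This held for 1174 regions, 4.51% of the shared regions, and the other 24880 served for comparison. The number, the spacing and the presence in all 4 lists are set by that choice and are given as a description.

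The study used FAIRE-seq, in which fixed and sonicated tissue is extracted with phenol and chloroform, and DNA with few nucleosomes is recovered from the aqueous phase and sequenced. All mice were of strain C57BL6 and around 9 weeks old. There were 2 libraries titled WT and 2 titled Mbd1 KO, which stands for loss of Mbd1, a gene whose protein recognises methylated CpG and takes part in silencing. The aim was to find regulatory elements whose activity differs between the genotypes. The sources used here do not say how the knockout was made, whether it spans all cells of the animal, which sex the mice had or how many mice stand behind a library. Groups were taken from the titles. The genotype field of the labels calls WT 1 a knockout and Mbd1 KO 2 a wild type, so the comparisons of genotypes below are also given with the groups of that field. Separate animals behind the libraries of a group are not stated, so p-values measure only the spread between these libraries, which may be technical.

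Accessible sites in mammalian chromatin are mostly promoters, enhancers and insulators, where regulatory proteins displace nucleosomes. Such sites gather around genes, and gene-poor stretches of chromosome hold few of them. Elements that lie far from any other include distal enhancers, which can act on a promoter over a long distance, and sites that bind the insulator protein CTCF. Without a gene annotation of the build used here, mm9, the isolated regions could not be sorted into these kinds, nor could the tissue be checked against its marker genes, and no sequence of them is printed. They are named by mm9 position, counted from 1.

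The lists ran from 38142 summits (WT 1) to 56382 (Mbd1 KO 1). Read depth is unknown. Each summit carries a score deposited by the authors, read as a −log10 p or q value of MACS2. The score was used to rank summits within a list, and the score percentile of a region in a library is the percent of that list at or below its highest summit, with ties sharing a mean rank. In bulk tissue a low score cannot tell a site open in few cells from a site that is little open in many. With input control and read filters unknown, a high score shared by all 4 lists may not mark open chromatin.

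Isolated regions were nearly always single summits a long way from the next. The nearest other shared region lay a median of 217 kb away (quartiles 177 and 293 kb), against 20.2 kb (quartiles 7.83 and 43.4 kb) for the other shared regions. In 273 isolated regions the distance was 300 kb or more, in 61 it was 500 kb or more and in 4 it was at least 1000 kb. All but 1 of the 1174 had exactly 1 summit in each library, as had 99.8% of the other shared regions. The isolated regions took up 3.08% of the summits of WT 1, 2.52% of WT 2, 2.08% of Mbd1 KO 1 and 2.36% of Mbd1 KO 2.

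The regions nearest the distance limit were as follows. The nearest on the inner side were on chromosome 5 (77889524 to 77889543), 150.1 kb from the next shared region, with score percentiles of 47.7, 40.7, 60.4 and 46.5 in WT 1, WT 2, Mbd1 KO 1 and Mbd1 KO 2, and on chromosome 1 (108321902 to 108321930). The latter, also at 150.1 kb, had percentiles of 41.2 and 83.1 in the WT libraries and of 87.1 and 78.7 in the Mbd1 KO libraries. The nearest on the outer side were each other's neighbours on chromosome 11 (64792437 to 64792449 and 64942158 to 64942171), 149.7 kb apart. Their lowest percentile over the 4 libraries was 99.1 in the first and 88.3 in the second.

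Isolated regions had lower scores than the other shared regions in each of the 4 libraries. In WT 1 the median score of isolated regions was 13.0 and their median percentile 56.0, against 15.8 and 64.9 for the other shared regions. In WT 2 the median scores were 13.7 and 15.9, and the percentiles 65.4 and 71.1. In Mbd1 KO 1 they were 15.04 and 17.7, with percentiles of 71.5 and 76.2. All of these differences had the same sign, and the quartiles of both classes overlapped widely. In Mbd1 KO 2 the scores were 16.5 and 18.7 and the percentiles 68.2 and 72.7. Percentiles of both classes were lowest in WT 1, the shortest list.

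The difference of the medians, isolated minus other, was −5.95 ± 2.03 percentile points (SD, n = 4 libraries), from −8.90 in WT 1 to −4.44 in Mbd1 KO 2. It was negative in 4 of 4 libraries (exact sign-flip permutation test over libraries, two-sided p = 0.13, the smallest that 4 libraries allow). With percentiles taken among the shared regions alone it was −9.00 points, and with lists shortened to equal length −5.80 points.

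**Figure D1:**
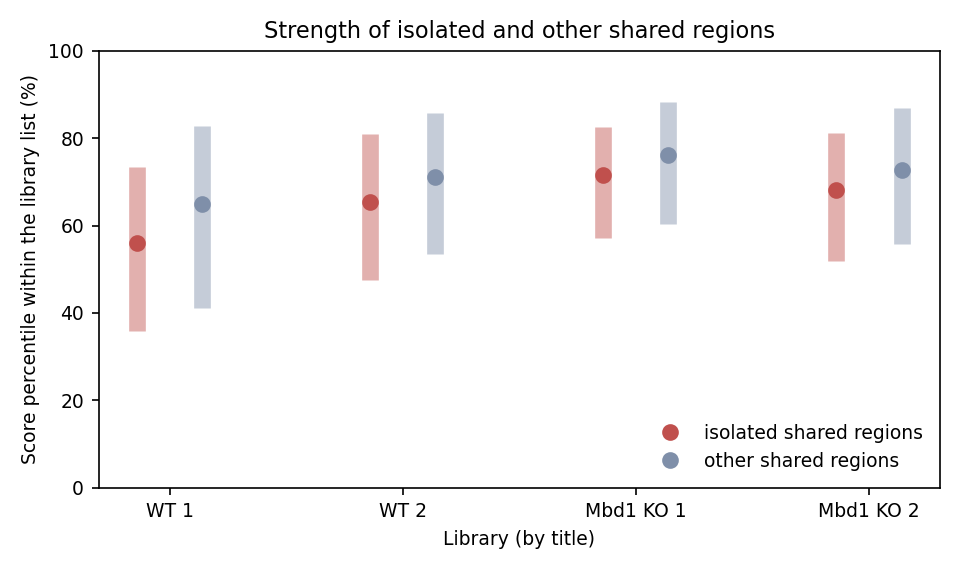
Score percentile within each library's list (vertical axis, percent) of isolated and other shared regions in the 4 libraries, with medians as points and the range between the quartiles as bars. The isolated median lies below the other median in each library, with a difference of −8.90 points in WT 1 and of −4.44 points in Mbd1 KO 2.

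Beyond 20 kb, score percentiles were mostly lower at longer distances to the next shared region. Among the 4382 shared regions less than 5 kb from the next, the median percentile was 64.9 in WT 1, 71.1 in WT 2, 76.1 in Mbd1 KO 1 and 72.1 in Mbd1 KO 2. Among those 5 to 20 kb from the next it was 64.9, 72.1, 76.8 and 74.0, equal in WT 1 and higher in the other libraries. At 100 to 150 kb, just outside the isolated class, these medians were 59.6, 67.5, 73.8 and 69.9. The regions at 150 to 200 kb, just inside it, had 59.5, 66.4, 73.7 and 71.3, so Mbd1 KO 2 was higher there and the other libraries were slightly lower. At 300 to 500 kb the medians were 50.6, 63.4, 69.9 and 66.6, lower than at 100 to 150 kb in all 4 libraries. In the 61 regions with 500 kb or more to the next, the medians were 54.9, 66.3, 70.8 and 67.5, above those of the step before in all 4 libraries.

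**Figure D2:**
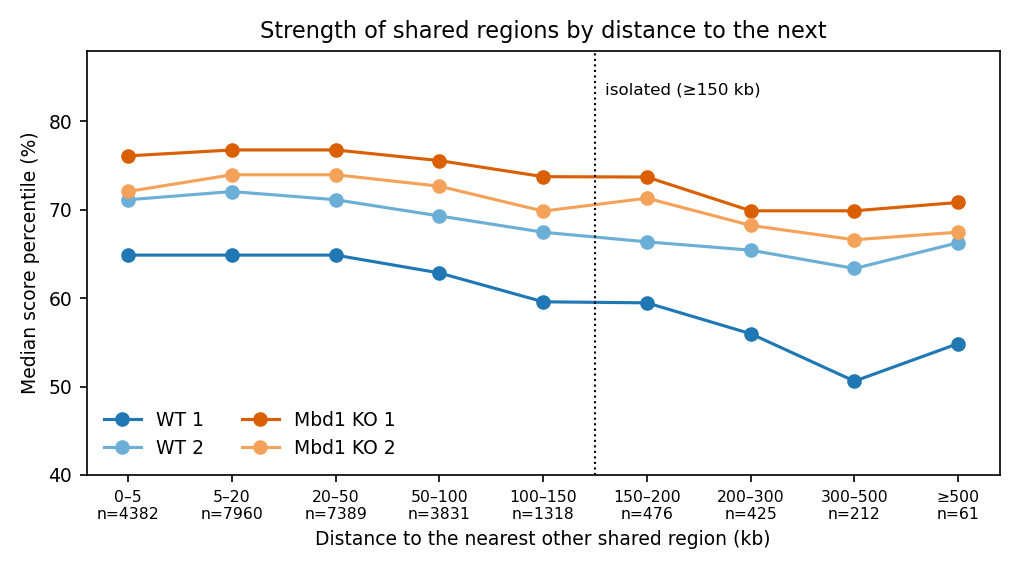
Median score percentile (vertical axis, percent, starting at 40) of shared regions grouped by the distance to the nearest other shared region (horizontal axis, kb), 1 line per library, with the number of regions under each group. Each line is lower at 300 to 500 kb (50.6 in WT 1, 69.9 in Mbd1 KO 1) than at 5 to 20 kb, and the dotted line marks the limit of 150 kb.

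Few isolated regions were strong. All shared regions were divided into 10 strength classes of equal size by their mean percentile over the 4 libraries. Of the weakest class 6.37% were isolated (166 regions) and of the strongest 2.15% (56 regions), against 4.51% of all shared regions. Percentiles above 90 in all 4 lists were reached by 65 isolated regions (5.54%), against 11.7% of the other shared regions. Percentiles below 50 in all 4 lists occurred in 112 (9.54%), against 5.92%. At the very top the order was mixed. Of the 10 shared regions with the highest lowest-of-4 percentile 2 were isolated, of the first 100 only 3 were, and of the first 1000 only 18.

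The strongest isolated region lay on chromosome 17 (36621755 to 36621772), 352 kb from the next shared region. Its scores were 198 in WT 1, 197 in WT 2, 208 in Mbd1 KO 1 and 205 in Mbd1 KO 2, which gave it rank 6 in the first list and rank 4 in the other lists. Within 150 kb of it lay 3 regions called in 3 libraries, and the nearest region of fewer than 4 libraries was 1.63 kb away. The second was on chromosome 15 (74917301 to 74917306), with scores of 196, 174, 188 and 199 and ranks 7, 11, 10 and 7. Around this second region the lists were nearly bare, with 1 further region of any kind within 150 kb. The third, on chromosome 8 (97604775 to 97604990), scored 116, 118, 136 and 123, and its highest summits were spread over 215 bp.

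The next 7 regions by lowest percentile all held list ranks within the first 1000 in every library. In order, the first of these was on chromosome 16 (22009444 to 22009469), followed by one on chromosome 4 (98590000 to 98590019) and one on chromosome 1 (94077109 to 94077123). After these came a region of chromosome 9 (19426448 to 19426471), a pair on chromosome 8 (112741702 to 112741735, and 122637891 to 122637938) and a region of chromosome 13 (5860538 to 5860547). The region on chromosome 4 was the most even of them, with scores of 92.6, 75.0, 93.4 and 89.5 and percentiles within 0.0332 points of each other. The region on chromosome 9 was the most remote of the 10, 838 kb from the next shared region, and scored 85.1, 93.05, 98.1 and 106. Its summits lay within 23 bp of each other. The highest summits of the region on chromosome 13 lay within 9 bp of each other, with scores of 80.2, 77.9, 82.4 and 93.5.

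The most distant regions were of middling strength. The region farthest from any other shared region was on chromosome 7 (11080773 to 11080788), with 3829 kb on one side and 1983 kb on the other. Its scores were 18.8, 14.5, 18.0 and 17.2 in WT 1, WT 2, Mbd1 KO 1 and Mbd1 KO 2, and its percentiles 71.9, 67.5, 76.8 and 69.9, so the 4 libraries placed it alike. Within 150 kb only 1 region of fewer libraries was called, and no shared region lay within 1 Mb. The next was on the same chromosome (14992853 to 14992900), 1353 kb from its neighbour, with percentiles of 50.6, 56.3, 58.1 and 61.0.

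The other 3 of the 5 most distant regions lay 1188 kb from the next on chromosome 2 (88196631 to 88196658), 1066 kb on chromosome 12 (48843073 to 48843081) and 998 kb on chromosome 6 (63443205 to 63443267). Those on chromosomes 2 and 12 had no shared region within 1 Mb, and the lowest percentile in any library was 74.0 and 76.7. The region on chromosome 6 differed most between libraries, with percentiles of 73.4 in WT 1, 61.2 in WT 2, 59.3 in Mbd1 KO 1 and 37.05 in Mbd1 KO 2.

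By the summed distance to both neighbours, the longest stretches holding a single isolated region began with the same region on chromosome 7, at 5811 kb. A pair of stretches on chromosome 12 followed, around 21619805 to 21619870 (3834 kb) and 20233075 to 20233326 (3608 kb). The latter was the weakest region named here, with scores of 2.70, 6.67, 3.61 and 6.95, and its summits were spread over 251 bp. The fourth, on chromosome 17 (39980195 to 39980307, 3082 kb), and the fifth, on chromosome 12 (117285819 to 117285891, 3047 kb), were strong in every library, with a lowest percentile of 90.7 and 96.05. Whether reads could be placed across the empty stretches, or whether repeated sequence raised any of these scores, was not tested. From the longest of these 5 stretches to the shortest, the mean percentiles were 71.5, 48.3, 19.8, 92.1 and 96.5. These 5 are too few to judge whether length and strength go together.

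Shared regions were also fewer beyond the 150 kb of the rule. Between 150 kb and 1 Mb on either side, isolated regions had a mean of 14.4 shared regions (median 14, quartiles 9 and 19). The other shared regions had 22.1 (median 21, quartiles 15 and 27). The rule does not count this span, but it picks isolated regions from sparse stretches and leaves the denser ones to the other class. The difference is therefore a description and no independent support. Some isolated regions followed each other along a chromosome, which the rule favours, since the distance between them already meets the limit for both. Of the isolated regions 547 stood alone between shared regions that were not isolated, 342 came in 171 pairs, and 1 row held 7 in succession. That row spanned 2.14 Mb of chromosome 5 (79612467 to 81751257). Its members ranged in mean percentile from 18.9 to 98.1, so the row held both weak and strong sites. There were 3 rows of 6, one each on chromosome 7 (60240566 to 62444970), on chromosome 8 (5591780 to 7469492) and on chromosome 9 (28472806 to 29947900).

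The surroundings of isolated regions held fewer recurrent summits but as many summits of 1 library. Within 150 kb of an isolated region there was a mean of 4.78 regions called in 1 library, against 4.73 around the other shared regions, a ratio of 1.01. Regions called in 2 libraries numbered 1.21 against 1.79, a ratio of 0.673. Regions called in 3 libraries numbered 0.704 against 1.49, a ratio of 0.473. The ratio was thus lower the more libraries called the neighbour. The rule itself bars regions of all 4 libraries from this span around isolated regions, and every other shared region has at least 1 there. Counts of regions of 2 or 3 libraries are therefore not independent of the rule. How much of the difference follows from it was not tested. Regions of 3 libraries were fewer around isolated regions in each of the 10 strength classes, and regions of 1 library were more numerous around them in 5 of the 10.

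In 619 isolated regions (52.7%) no region of 3 libraries lay within 150 kb, against 28.0% of the other shared regions. In 235 (20.02%) there was none of 2 or 3 libraries, against 7.06%. In 20 isolated regions (1.70%) no further region of any library was called within 150 kb, against 0.482%. The median distance to the nearest region of 3 libraries was 168 kb, against 76.04 kb, and the median distance to the nearest region of 1 library was 25.2 kb, against 23.6 kb.

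**Figure D3:**
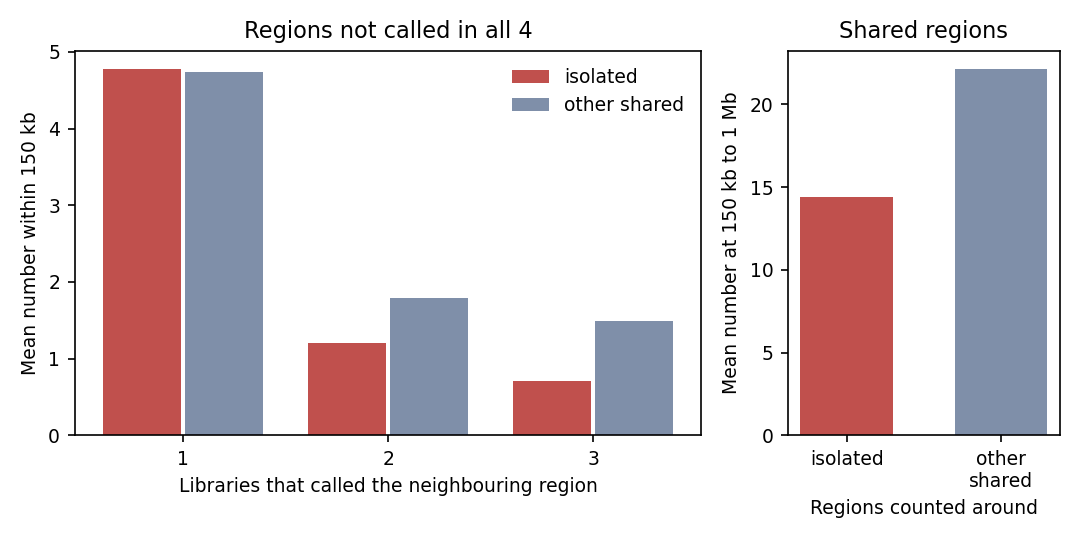
Mean number of regions of 1, 2 or 3 libraries within 150 kb (left) and of shared regions from 150 kb to 1 Mb away (right), around isolated and other shared regions. The bars for 1 library are level at 4.78 and 4.73, those for 3 libraries are 0.704 and 1.49, and those for distant shared regions are 14.4 and 22.1.

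The libraries differed in what they added to these stretches. Regions found only in Mbd1 KO 1, the longest list, were more frequent near isolated regions, with a mean of 2.19 against 1.82 near the other shared regions. Those found only in WT 1 were less frequent (0.409 against 0.518), as were those found only in WT 2 (1.05 against 1.11) and only in Mbd1 KO 2 (1.12 against 1.29). The level ratio for all regions of 1 library thus summed libraries that went in opposite directions. Mbd1 KO 1 has the longest list and WT 1 the shortest, but Mbd1 KO 2, with more summits than WT 2, had the lower ratio (0.873 against 0.952). Counting for each library all its regions that were not shared, isolated regions had fewer in 4 of 4 libraries, with a difference of −0.870 ± 0.261 regions (SD, n = 4; the values per library were −0.857, −0.834, −0.577 and −1.21).

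Neighbours that failed to count because 1 library lacked them were most often missed by WT 1. A region absent from WT 1 alone lay within 150 kb of 302 isolated regions, one absent from WT 2 alone near 191, from Mbd1 KO 1 alone near 113 and from Mbd1 KO 2 alone near 120. The mean number absent from WT 1 alone was 0.317 near isolated and 0.601 near the other shared regions. For WT 2 it was 0.174 against 0.416, for Mbd1 KO 1 0.106 against 0.253 and for Mbd1 KO 2 0.107 against 0.219. WT 1, the shortest list, thus lacked the most around both classes. Had regions of 3 libraries counted as neighbours, a choice made after the values were seen, 619 of the 1174 would have remained isolated.

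Rank agreement between libraries was lower among isolated regions. The rank correlation of percentiles between libraries (Spearman's rho across regions, which are not replicates) was 0.776 ± 0.0222 over the 6 library pairs for isolated regions and 0.829 ± 0.0115 for the other shared regions (SD over pairs, which share libraries). It was lower for isolated regions in each pair, with differences from −0.0737 for WT 1 with Mbd1 KO 1 to −0.0378 for WT 2 with Mbd1 KO 2. The lowest value among isolated regions was 0.742, between WT 1 and WT 2, and the highest 0.803, between Mbd1 KO 1 and Mbd1 KO 2. Without WT 1 the mean difference was −0.0265, against −0.0531 with all libraries.

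The median range of the 4 list percentiles of a region was 22.4 points for isolated and 19.3 points for other shared regions. With percentiles among the shared regions the medians were closer, at 22.9 and 21.5 points. List percentile ranges of 50 points or more occurred in 56 isolated regions (4.77%), against 3.98% of the others, and ranges under 5 points in 81 (6.90%), against 13.2%. The rank correlation was not computed at matched strength, but the range was, and there isolated and other regions were close. In the weakest strength class the median range was 31.3 points for isolated and 32.2 points for other regions, and in the strongest it was 2.65 and 2.15. The isolated median was the larger in 7 of the 10 classes, with differences from −2.41 to 2.37 points. Weighted by the number of isolated regions per class, the difference was 0.0912 points.

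**Figure D4:**
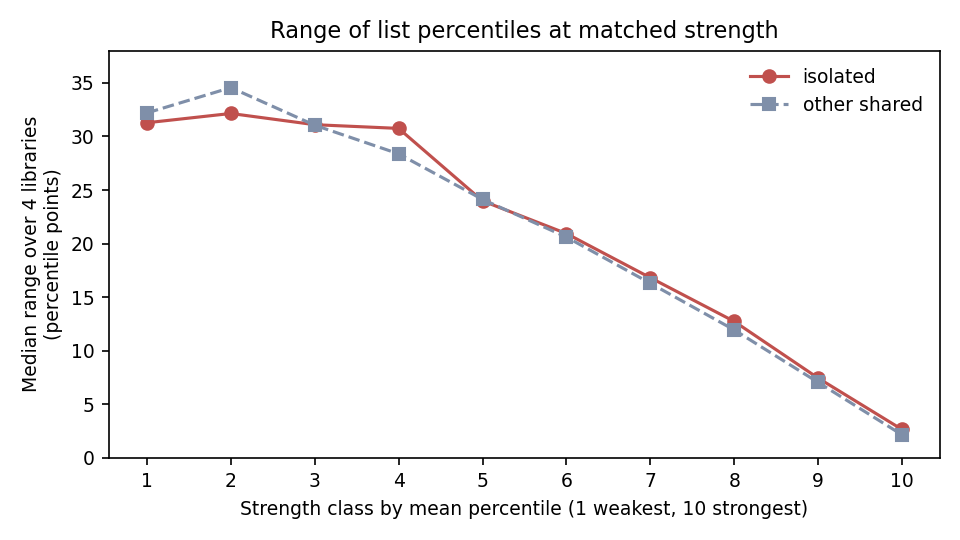
Median range of the 4 list percentiles of a region (vertical axis, percentile points) in 10 strength classes of all shared regions ordered by mean percentile (horizontal axis), for isolated and other shared regions. Both lines are higher in class 2 than in class 1. The isolated line lies below the other line in classes 1, 2 and 5 and above it elsewhere. The lines end at 2.65 and 2.15 points in the strongest class.

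The position of the summit varied little more in isolated regions. The highest summits of the 4 libraries spanned a median of 44 bp in isolated regions (quartiles 29 and 65 bp) and 40 bp in the others (quartiles 27 and 59 bp). A span over 100 bp occurred in 95 isolated regions (8.09%), against 6.51%. Between 2 libraries the median offset was 20 to 22 bp in isolated regions and 19 to 20 bp in the others. The span was larger for isolated regions in 8 of the 10 strength classes, and in the strongest it was 30.5 bp against 30 bp.

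Isolated regions did not differ between the titled genotypes by more than the libraries of a group differed. Percentiles among the shared regions, used here because they do not depend on list length, had a mean over isolated regions of 42.1 in WT 1, 43.7 in WT 2, 43.1 in Mbd1 KO 1 and 44.04 in Mbd1 KO 2. The groups overlapped. The mean was 43.6 ± 0.656 for Mbd1 KO and 42.9 ± 1.11 for WT (SD, n = 2 each), a difference of 0.659 points (exact permutation test, two-sided p = 0.667; 2 libraries against 2 cannot give a p below 0.33). Without WT 1 the difference was −0.129 points. With the groups of the genotype field it was −1.25 points (exact permutation p = 0.333, the smallest that 2 libraries against 2 allow). The means were 42.6 ± 0.695 for Mbd1 KO and 43.9 ± 0.237 for WT (SD, n = 2 each). By the field the groups did not overlap, with 42.1 and 43.1 for Mbd1 KO and 43.7 and 44.04 for WT. WT 1 had the lowest percentile in 348 isolated regions (29.6%), against 25.6% of the other shared regions, and Mbd1 KO 2 in 244 (20.8%), against 24.4%.

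Both Mbd1 KO percentiles lay above both WT percentiles in 192 isolated regions (16.4%), and this was so for 16.3% of all shared regions. Both lay below in 168 (14.3%), against 16% of all shared regions. The shares of isolated regions were thus near the background in both directions. With the genotype field the numbers were 187 (15.9%) above, against 18.3% of all shared regions, and 226 (19.3%) below, against 17.9%. Gaps of more than 20 points between the groups were rare, with 7 isolated regions higher and 12 lower in the libraries titled Mbd1 KO (0.596% and 1.02%), against 0.892% and 0.856% of the other shared regions. By the genotype field there were 12 higher and 18 lower (1.02% and 1.53%), against 1.12% and 1.10%.

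The widest gaps between the titled groups, chosen by title alone and listed as a description with no test, were as follows. The region on chromosome 18 (85859999 to 85860019) had percentiles among shared regions of 19.5 in WT 1 and 17.8 in WT 2, against 48.1 in Mbd1 KO 1 and 59.6 in Mbd1 KO 2. A region on chromosome 7 (131342357 to 131342382) had 2.67 and 6.61 against 33.0 and 42.5, and one on chromosome 16 (48074805 to 48074922) had 2.67 and 4.78 against 46.8 and 29.2. These 3 were thus weak in both WT libraries and of low to middling rank in both Mbd1 KO libraries.

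In the other direction the widest gap was on chromosome 2 (179514085 to 179514130), with 66.04 and 62.9 in the WT libraries against 27.2 and 18.5 in the Mbd1 KO libraries. A second region of chromosome 2 (23427639 to 23427663) had 53.4 and 55.7 against 8.86 and 21.03, and a region on chromosome 6 (126117990 to 126118023) had 53.4 and 47.5 against 11.05 and 16.1. All 6 regions were called in every library, so the difference is one of rank. Grouped by the genotype field, these 6 had mean differences between −7.27 and 7.74 points. By title the difference was between 33.1 and 35.2 points in the first 3 and between −41.6 and −36.9 points in the others. Each group of the field pairs a library titled WT with a library titled Mbd1 KO. In regions chosen for a wide gap by title, that gap therefore largely cancels by the field. The contrast cannot tell which grouping is right, and regions chosen by the field were not listed.

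Isolated regions were found on all 19 autosomes, with an uneven share. Chromosome 14 had the highest share, with 67 of its 1128 shared regions isolated (5.94%), followed by chromosome 4 with 89 of 1549 (5.75%) and chromosome 15 with 62 of 1125 (5.51%). Chromosome 19 had the lowest, with 23 of 760 (3.03%), followed by chromosome 11 with 54 of 1670 (3.23%) and chromosome 10 with 51 of 1464 (3.48%). The largest number was 100, on chromosome 1. The densest chromosomes, chromosome 11 with 141 and chromosome 19 with 131 shared regions per 10 Mb, had the lowest isolated shares, and chromosome 14 had 96.9 per 10 Mb. Chromosome 15 was an exception, with 112 per 10 Mb and a high isolated share. Chromosome 7, with the fewest (96.8), had an isolated share of 4.30%, below that of all shared regions. It also held the longest gap between shared regions, 7225 kb, and whether reads could be placed there was not tested. Across the 19 chromosomes Spearman's rho between the isolated share and the density of shared regions was −0.707, a description in which both measures count the same shared regions.

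Per 10 Mb between the first and the last shared region of a chromosome, isolated regions numbered from 3.96 (chromosome 19) to 6.18 (chromosome 15), with a median of 4.83. Shared regions per 10 Mb ran from 96.8 to 141. The lower strength of isolated regions was seen on each chromosome. Their median mean percentile was below that of the other shared regions on 19 of 19, with differences of −16.3 points on chromosome 19 (54.2 against 70.5), −12.8 points on chromosome 17 (58.9 against 71.7) and only −0.132 points on chromosome 9. All libraries share these regions, so chromosomes are not replicates and no test was made.

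**Figure D5:**
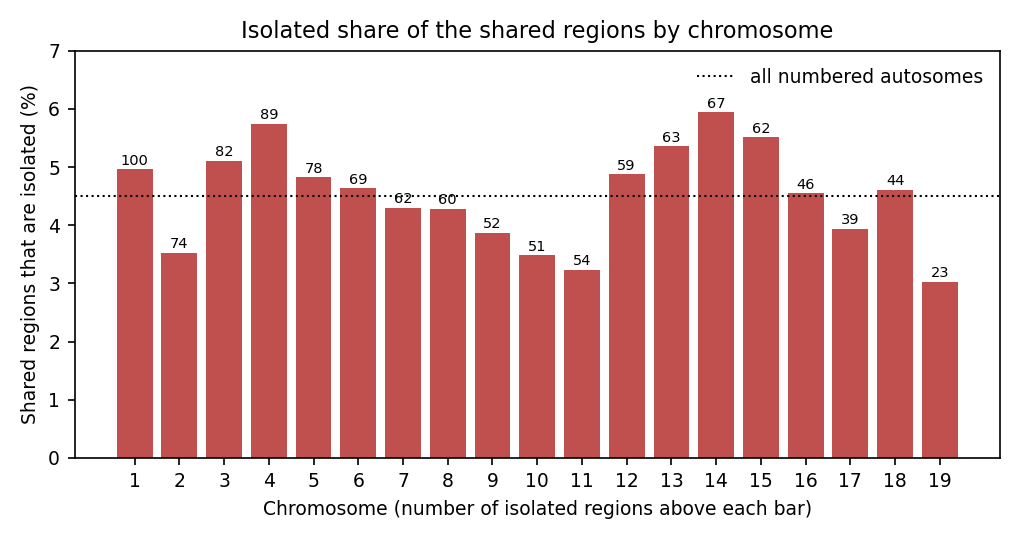
Share of the shared regions that are isolated (vertical axis, percent) on each numbered autosome, with the number of isolated regions above each bar and the share over all autosomes (4.51%) as a dotted line. Chromosome 14 is highest at 5.94% and chromosome 19 lowest at 3.03%.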

How the data were processed

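FAIRE-seq summit lists of 4 dentate gyrus libraries (2 titled WT, 2 titled Mbd1 KO) were used. The submitters' processing notes name build mm9, Bowtie, SAMtools and MACS2 and no version. For input control, thresholds and read filters nothing is given in the sources used here. The authors deposited 1 list per library, not pooled, of summits 1 base wide; the deposited score, smallest value 1.32, was taken as a −log10 p or q value. The gene and promoter tables at hand are of build GRCm38 and were not used for positions. The members, comparisons and named regions were chosen with earlier results of these data known.

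Summits within 250 bp were joined in Python 3.11.15 (scipy 1.17.1, pandas 2.3.3, numpy 2.4.6); joining and classing were tested on simulated lists. Groups follow the titles. Named regions are the 10 isolated regions with the highest lowest-of-4 percentile, the 5 most distant, the 5 in the longest stretches, 2 on each side of the limit, and 3 per direction with the widest gap between titled groups. Per-library values were compared with exact permutation tests. Read depth is unknown, so no counting interval for reads was computed. Exact binomial intervals over regions served only to class alternative shares as changed or unchanged. Alternatives changed the joining and isolation distances, list length, score minimum, grouping, percentile basis and libraries.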

Additional observations from a re-analysis of the deposited data

How the results depend on the processing

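Of 122 alternative values, 112 were classed as unchanged. Differences in strength and between genotypes had to keep their direction, and the number of isolated regions had to stay within a set fold range. Chromosome and non-overlap shares had to lie in an exact binomial interval over regions, which are not replicates. Other values had to stay within the spread of the reported value. The lower strength of isolated regions kept its direction in every setting run, from −9.00 to −4.59 points. The number of isolated regions was 2492 at 100 kb and 432 at 250 kb, and 619 where regions of 3 libraries counted as neighbours (added after the data were seen); these follow from the construction. Leaving out 1 library gave 1081 to 1135, and 74.1% of the 1174 remained isolated without WT 1. With summits scoring at least 10 there were 1734, but only 617 of the 1174 were among them. The genotype difference turned from 0.659 to −1.25 points with the genotype field, ran from −0.129 to 1.45 with 1 library left out, and was 8.04 points with percentiles in whole lists, which move with list length. With a replicate block it was 0.659 points (0.982 in pair 1 and 0.335 in pair 2, exact sign-flip permutation p = 0.5, the smallest that 2 pairs allow). Deviations of same-numbered libraries correlated at 0.0368 over isolated regions and at 0.0656 over all shared regions. The labels do not state a batch, and these correlations cannot tell whether same-numbered libraries were prepared together. Regions lower in Mbd1 KO without overlap were 14.3% by title and 19.3% by the genotype field. The difference in rank correlation ran from −0.0545 to −0.0265 with 1 library left out, that in summit offset was 3 bp at 250 kb against 1.67 bp, that in neighbouring regions −0.537 at a joining distance of 1000 bp against −0.870, and chromosome 19 held 3.24% of isolated regions at 250 kb against 1.96%; the cause was not tested. No exact test here can pass 0.05, and depth could not be corrected for.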

Other observations

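Chromosome X, which lies outside the numbered autosomes, had 487 shared regions, of which 121 (24.8%) were isolated by the same distance. The highest share on a numbered autosome was 5.94%, on chromosome 14. Chromosome Y had 49 shared regions, of which 1 was isolated. The sources used here do not give the sex of the mice, but every library had summits in these regions of chromosome Y. Whether the number of X copies bears on the isolated share of chromosome X was not tested.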
